A study of Mus musculus with 16 samples.

Results

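The nuclei described here are astrocyte nuclei of the mouse hippocampus in which at least 1 Gfap transcript was counted, 4439 of the 15218 astrocyte nuclei and of the 147873 nuclei in all. A nucleus was a barcode with at least 500 unique molecular identifiers (UMIs, the tags that count single transcripts), at least 300 genes and at most 5% mitochondrial UMIs. An astrocyte nucleus held at least 4 UMIs summed over Slc1a3, Gja1, Plpp3, Acsbg1 and Gli3, and at most 1 UMI of each pair or trio of genes marking neurons (Slc17a7, Gad1, Gad2), oligodendrocytes (Mog, Mag), their precursors (Pdgfra, Vcan) and microglia (Inpp5d, Csf1r). A Gfap-positive nucleus held 1 or more Gfap UMIs besides. These 15 genes chose the nuclei, so their levels are given as a description and support nothing.

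Single-nucleus RNA of the hippocampus was sequenced from 16 female mice aged 9 months, 4 in each of 4 groups. Mice with intact Ch25h (Ch25h+/+) and mice without it (Ch25h-/-) either carried tau (Tau+) or did not (Tau-). Ch25h encodes cholesterol 25-hydroxylase, the enzyme that makes 25-hydroxycholesterol. The study's title links innate immune signalling through STING and interferon, CH25H and lipids to tau pathology, and the groups allow the tau response of these astrocytes to be measured with and without Ch25h. The labels do not name the tau line or its promoter, and do not say whether Ch25h was deleted in the whole body, from when, or by which change to the gene. All mice were of the same sex and age, and the labels give each library as a separate mouse sample without naming litters or batches, so p-values measure the spread between these samples.

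Astrocytes take up glutamate and potassium, supply lipids and lactate to neurons and line vessels with their endfeet. GFAP is an intermediate filament protein that fibrous astrocytes of white matter and of the hippocampal surface carry at a high level, and that grey-matter astrocytes raise when they become reactive after injury or in neurodegeneration. Cytokines of the interleukin-6 family drive this reaction through STAT3, and type I interferon drives a separate set of antiviral genes through a factor complex that includes STAT2 and IRF9.

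The 16 libraries held 8130 to 11654 nuclei each, of which 113 to 600 were Gfap-positive astrocyte nuclei, with 321530 to 1760993 UMIs in all and library medians between 2322.5 and 3265 UMIs per nucleus. Over all nuclei, Ch25h (chr19:34473778-34475164, GRCm38) had 16 to 39 UMIs per library in Ch25h+/+ Tau+, 10 to 13 in Ch25h+/+ Tau-, 13 to 33 in the libraries labelled Ch25h-/- Tau+ and 12 to 26 in those labelled Ch25h-/- Tau-. The deleted stretch is not given, so a 3' tag count cannot check the Ch25h label, and the Gfap-positive nuclei held 2 Ch25h UMIs in all. Gm26902, a noncoding gene that overlaps Ch25h on the other strand, did separate the labels, with 33 to 53 UMIs in Ch25h+/+ and 11 to 25 in Ch25h-/- libraries. Gm43049, a noncoding gene on chromosome 3 (chr3:140692038-140760704), separated the tau labels with 3405 to 5868 UMIs in Tau+ and 1 to 12 in Tau- libraries. Replicates are numbered in the order of deposit. Over all nuclei, replicates 1 and 2 of every group lay on the opposite side of the first principal component (35.8% of the variance) from replicates 3 and 4, so the shares and the effects of tau and Ch25h were also computed within these 2 sets of libraries, and the comparison of Gfap-positive with Gfap-negative nuclei was not.

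Slc1a2 and Aqp4, which were not in the rule, had medians over libraries of 6505 and 456 CPM (counts scaled to the same UMI total in each library, as counts per 1e6 UMIs) in the Gfap-positive nuclei. Both mark astrocytes, and neither goes against the label. The listed astrocyte markers summed to 11002 to 14356 CPM. The markers of other cells were present at lower summed levels, and those of neurons reached the level of Aqp4. Excitatory neuron markers summed to 405 to 470 CPM in Ch25h+/+ Tau+ and 404 to 1052 CPM in Ch25h+/+ Tau-, and to 368 to 811 and 257 to 697 CPM in the Tau+ and Tau- libraries of Ch25h-/-. Inhibitory neuron markers were at 304 to 358 CPM in Ch25h+/+ Tau+ and 164 to 255 CPM in Ch25h+/+ Tau-, without overlap, and overlapped in Ch25h-/- (262 to 370 and 181 to 568 CPM). Choroid plexus markers ranged from 25.1 to 464 CPM over the 16 libraries. The summed level of 10 microglial markers was 99.6 to 185 CPM in Ch25h+/+ Tau+ and 103 to 121 CPM in Ch25h+/+ Tau-, and in Ch25h-/- it was 121 to 150 CPM with tau and 94.97 to 119 CPM without, with no overlap. Tmem119, one of them, was at 0 in 10 of 16 libraries. Mural cell markers also separated the tau states in Ch25h-/- (179 to 210 CPM with tau, 136 to 170 CPM without) and overlapped in Ch25h+/+ (161 to 204 and 126 to 217 CPM). The summed level of 8 ependymal markers was 24.3 to 61.5 CPM in Ch25h-/- Tau- and 56.7 to 183 CPM in Ch25h-/- Tau+. The part of these RNAs in the results below was not tested. Between any pair of libraries at most 2 barcodes of Gfap-positive nuclei were shared, and 7 barcodes occurred in more than 1 library.

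Gfap transcripts were found in a larger share of astrocyte nuclei in Tau+ mice. In Ch25h+/+ Tau- the share of astrocyte nuclei with a Gfap UMI was 20.3, 21.1, 16.7 and 22.2% in replicates 1 to 4, and in Ch25h+/+ Tau+ it was 50.5, 43.6, 26.7 and 43.3%. In Ch25h-/- it was 21.6, 17.9, 16.8 and 25.1% without tau and 35.5, 38.6, 27.5 and 38.1% with tau. Every Tau+ library lay above every Tau- library, and replicate 3 was the lowest of the Tau+ libraries in both genotypes. Over both genotypes the difference was 17.7 percentage points, from a mean of 20.2 to 38.0% (two-sided exact permutation test over 4900 arrangements within genotype, p = 0.000408, Benjamini-Hochberg adjusted over 6 effects 0.00245), and leaving out any single library gave 16.2 to 20.1 points.

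Within a genotype the difference was 20.9 points in Ch25h+/+ (20.1 ± 2.41 to 41.0 ± 10.1%, SD, n = 4) and 14.5 points in Ch25h-/- (20.4 ± 3.75 to 34.9 ± 5.15%, SD, n = 4). Each had an exact permutation p of 0.0286, the smallest that 4 against 4 mice allow, and an adjusted p of 0.0571. Loss of Ch25h moved the share by -6.11 points in Tau+ mice (exact permutation p = 0.314, adjusted 0.434) and by 0.287 points in Tau- mice (exact permutation p = 0.886), and the groups overlapped in both. The Tau+ difference was smaller than the SD of the Ch25h+/+ Tau+ libraries (10.1 points) and larger than that of the Ch25h-/- Tau+ libraries (5.15 points), and the Tau- difference was smaller than the SD of either group. Single libraries moved the Tau+ value. Without Ch25h+/+ Tau+ replicate 3 the difference was -10.9 points with no overlap (exact permutation p = 0.0286, adjusted 0.0429), on leaving out Ch25h+/+ Tau+ replicate 1 it was -2.96 points, on leaving out Ch25h-/- Tau+ replicate 3 -3.63 points, and for any other library -7.33 to -5.25 points, none of which passed. It was -10.0 points without overlap in replicates 1 and 2 and -2.22 points with overlap in replicates 3 and 4. Leaving out Ch25h+/+ Tau+ replicate 3 also gave the tau difference within each genotype an adjusted p of 0.0429. The exact permutation p stayed at 0.0286 in each, so only the adjustment over all effects moved. As a share of all nuclei, the tau difference was 2.69 points in Ch25h+/+ without overlap (exact permutation p = 0.0286). In Ch25h-/- that difference was 0.836 points with overlap (exact permutation p = 0.171).

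The share depended on depth, so nuclei were also thinned to 1000 UMIs each, leaving out 3 to 32 shallower astrocyte nuclei per library. With the marker rule applied again after thinning, 376 to 966 astrocyte nuclei per library remained, 10322 of 15218 in all. Their share with a Gfap UMI had a mean of 10.6% in Tau- and 23.6% in Tau+, a difference of 13.0 points (exact permutation p = 0.000816), and the lowest Tau+ library (13.84%) fell just below the highest Tau- library (13.87%). Without repeating the rule, a version added after seeing the data, the means were 10.4 and 23.3%, a difference of 12.9 points (exact permutation p = 0.000408), and no Tau+ library (14.5 to 33.5%) reached a Tau- library (7.59 to 12.8%). Free RNA sets a background: of excitatory neuron nuclei 0.313 to 2.95% held a Gfap UMI, with median depths of 9744 to 15097 UMIs, and of oligodendrocyte nuclei 0.191 to 3.21%, with median depths of 1471 to 2277 UMIs. The astrocyte nuclei had median depths of 2137 to 3017 UMIs, and their share lay above these backgrounds in every library. The background was itself higher with tau: the median over libraries was 0.709% in Tau- and 1.86% in Tau+ for excitatory neuron nuclei, and 0.780 and 1.68% for oligodendrocyte nuclei. Barcodes under 100 UMIs, which hold free RNA, had a mean Gfap level of 28.9 CPM in Tau- and 78.7 CPM in Tau+ libraries. The part of free RNA in the tau difference of the share was not tested.

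**Figure D1:**
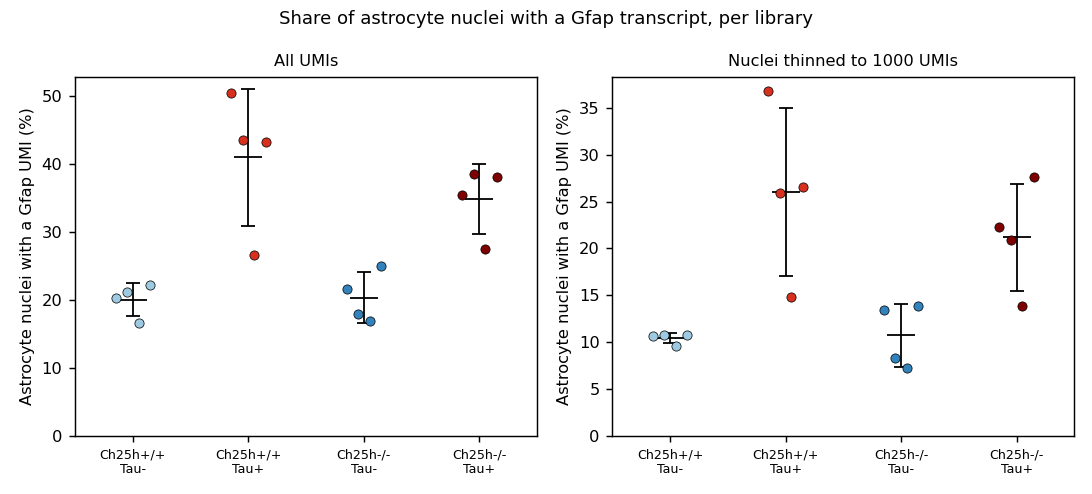
Share of astrocyte nuclei with a Gfap UMI in percent, 1 point per library, from all UMIs (left) and after thinning each nucleus to 1000 UMIs and applying the marker rule again (right), with the mean and SD of each group of 4. All Tau+ libraries lie above all Tau- libraries on the left, where the Tau+ libraries span 26.7 to 50.5% and the Tau- libraries 16.7 to 25.1%.

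Most of these nuclei sat close to the limit of the rule. Exactly 1 Gfap UMI was counted in 51.8% of them, 2 in 19.6%, 3 in 9.60%, 4 in 5.47% and 5 or more in 13.6%. The share with 5 or more had a median of 23.2% of the Gfap-positive nuclei in Ch25h+/+ Tau+ and 17.9% in Ch25h-/- Tau+ libraries, and of 2.47 and 2.03% in the matching Tau- libraries. Just outside the rule, the 10779 astrocyte nuclei with no Gfap UMI had a pooled Aqp4 level of 199 CPM and an Id3 level of 103 CPM, and just inside it the 2298 nuclei with 1 UMI had 340 and 162 CPM. The 173 nuclei with 3 marker UMIs, 1 too few, had a pooled Gfap level of 973 CPM, and the 192 with exactly 4 had 906 CPM.

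Summed over the Gfap-positive nuclei of a library, Gfap (chr11:102887336-102900912) was at 607, 628, 513 and 539.9 CPM in Ch25h+/+ Tau-, and at 1132, 1019.9, 628 and 894 CPM in Ch25h+/+ Tau+. In Ch25h-/- it was at 499.8, 603, 439.9 and 590.0 CPM without tau and at 887, 908, 647 and 1012 CPM with tau. The lowest Tau+ library lay just above the highest Tau- library. A sum over nuclei cannot tell more nuclei of high level from more transcripts in each. These nuclei were chosen on Gfap, and no test is given.

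Tau+ and Tau- mice were next compared within the Gfap-positive nuclei, with UMI counts summed per library and tested with edgeR's quasi-likelihood test. Of 10211 genes that passed the low-count filter, 238 changed over both genotypes at an adjusted p under 0.05, which is 2.33% of those tested: 176 rose (1.72%) and 62 fell (0.607%). Each of the 238 had the same sign within each genotype, which choosing genes by the mean of both genotype effects favours. In 30 of the 238 no Tau+ library overlapped a Tau- library, and in the rest the libraries overlapped. With DESeq2 275 were called, 232 of them in common. In single genotypes, with 4 mice against 4, 12 genes changed in Ch25h+/+ (0.118%), 10 higher (0.0979%) and 2 lower (0.0196%), and 23 in Ch25h-/- (0.225%), 21 higher (0.206%) and 2 lower (0.0196%). Of the 23, Spag16, Ccdc190, Ccdc114, Lrriq1, Dnah2, Spef2 and Cfap44, named after their values were seen, are genes of motile cilia, which ependymal cells carry, and the ependymal marker sum was 24.3 to 61.5 CPM in Tau- and 56.7 to 183 CPM in Tau+ libraries of this genotype. Its part in these calls was not tested. With limits on vascular, ependymal and choroid markers, 194 of 8454 genes tested were called over both genotypes (2.29%, 1.70% higher and 0.591% lower), the Ch25h-/- count was 15 and the Ch25h+/+ count 36. Single libraries moved these counts further. The Ch25h+/+ count was 3 without Tau+ replicate 1, Tau+ replicate 2, Tau- replicate 3 or Tau- replicate 4 of its own genotype, 54 without its Tau+ replicate 3, 5 or 6 without Ch25h-/- Tau+ replicate 4 or any of the 4 Ch25h-/- Tau- libraries, but 22 on leaving out Ch25h-/- Tau+ replicate 3. The Ch25h-/- count was 3 without its own Tau+ replicate 1, 8 without Tau+ replicate 4, 122 without Tau+ replicate 3, and 13, 4, 8 and 4 without Tau- replicates 1 to 4, and it was 43, 55, 15 and 11 without Ch25h+/+ Tau+ replicate 1, Tau+ replicate 3, Tau+ replicate 4 and Tau- replicate 4. The 238 calls over both genotypes became 140 on leaving out Ch25h+/+ Tau+ replicate 1, 148 on leaving out Ch25h-/- Tau+ replicate 1, 152 on leaving out Ch25h-/- Tau- replicate 4, and at most 350, on leaving out Ch25h-/- Tau+ replicate 3. The 176 that rose became 120 to 249 on leaving out single libraries, while the 62 that fell became 18, 34, 94 and 37 for Ch25h+/+ Tau+ replicates 1 to 4, 29 for Ch25h+/+ Tau- replicate 4, 28, 28 and 101 for Ch25h-/- Tau+ replicates 1 to 3, and 32 and 19 for Ch25h-/- Tau- replicates 3 and 4. Nuclei with 2 or more Gfap UMIs gave 92 that rose and 75 that fell. Nuclei with exactly 1 Gfap UMI, 2298 in all, gave 4 calls, all of them among the 238.

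Several genes of the astrocyte reaction rose. Of 12 genes listed as pan-reactive, 8 passed the low-count filter and 5 rose (1.72% of all genes did), Serpina3n, Osmr, Aspg, Cd44 and S1pr3, with a median log2 fold change of 2.04 over the 8 against -0.01 over all genes tested. A gene near 0 UMIs in Tau- passes the filter only where it is high in Tau+, so in this and the following lists the counts and medians over tested members describe those members and not the whole list. The count was 8 without Ch25h-/- Tau+ replicate 3. Vim, another intermediate filament gene of reactive astrocytes, had a log2 fold change of 1.03 with an adjusted p of 0.065, and Cp one of 1.22. Of 20 genes listed as disease-associated, all passed the filter, 7 rose (Serpina3n, Osmr, Ggta1, C4b, Gsn, S100a6 and Cd9) and 1 fell (Fabp5), where 1.72% of all genes rose and 0.607% fell, with a median of 0.22. Of the 4 tested genes of the neurotoxic type, Serping1 and Ggta1 rose, by 2.02 and 1.79 on the log2 scale, and leaving out replicate 3 of Ch25h+/+ Tau+ gave 4 calls of 6 tested, leaving out that of Ch25h-/- Tau+ 5 of 6. C3 and Gbp2 of that list did not pass the low-count filter. Of 13 MHC class I genes 6 were tested and none was called by edgeR (5 at an unadjusted p under 0.05), with a median of 0.78, and DESeq2 called 2. Leaving out replicate 3 of a group gave calls, 1 for Ch25h+/+ Tau-, 3 for Ch25h+/+ Tau+ and 4 for Ch25h-/- Tau+.

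Serpina3n (chr12:104406729-104414329) encodes a secreted inhibitor of serine proteases. Its level was 0, 0, 3.81 and 1.39 CPM in Ch25h+/+ Tau-, 26.2, 50.9, 7.68 and 38.0 CPM in Ch25h+/+ Tau+, 2.43, 5.69, 0 and 0 CPM in Ch25h-/- Tau- and 22.8, 13.2, 6.87 and 27.4 CPM in Ch25h-/- Tau+. No Tau+ library overlapped a Tau- library, and the log2 fold change was 4.04 ± 0.62 (SE, adjusted p = 0.00229). In Ch25h-/- alone, where the Tau- libraries held 3 Serpina3n UMIs and the Tau+ libraries 69, the ratio was 15.4-fold with a 95% counting interval of 5.05 to 76.4. Barcodes under 100 UMIs had a mean Serpina3n level of 12.9 CPM in Tau- and 25.4 CPM in Tau+ libraries, above the Gfap-positive nuclei's level in all 8 Tau- and in 4 of 8 Tau+ libraries, and the part of free RNA in this difference was not tested.

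A2m, which encodes the protease inhibitor alpha-2-macroglobulin (chr6:121635376-121679227), separated the tau states in every library. It was at 9.74, 23.2, 19.1 and 16.7 CPM in Ch25h+/+ Tau-, 81.9, 97.3, 88.3 and 81.5 CPM in Ch25h+/+ Tau+, 7.28, 2.84, 24.4 and 15.2 CPM in Ch25h-/- Tau- and 111, 107, 70.4 and 97.8 CPM in Ch25h-/- Tau+. The log2 fold change was 2.52 ± 0.20 over both genotypes (adjusted p = 3.52e-08), 2.28 ± 0.27 in Ch25h+/+ and 2.76 ± 0.28 in Ch25h-/-. A2m was called in each genotype.

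Cd44, the receptor for hyaluronan (chr2:102811141-102901665), was at 9.74, 14.3, 15.3 and 18.1 CPM in Ch25h+/+ Tau- and at 104, 67.0, 39.7 and 62.8 CPM in Ch25h+/+ Tau+. In Ch25h-/- it was at 26.7, 5.69, 24.4 and 23.2 CPM without tau and at 106, 75.0, 34.3 and 82.2 CPM with tau. The groups did not overlap, and the log2 fold change was 2.03 ± 0.27 (adjusted p = 0.000388). C4b, complement component 4, which shares reads with its near-copy C4a, was at 136, 60.6, 76.3 and 89.0 CPM in Ch25h+/+ Tau-, 352, 321, 133 and 277 CPM in Ch25h+/+ Tau+, 80.1, 114, 70.5 and 99.0 CPM in Ch25h-/- Tau- and 233, 285, 120.2 and 249 CPM in Ch25h-/- Tau+. C4b rose by 1.48 ± 0.23 on the log2 scale (adjusted p = 0.00471), with Tau+ replicate 3 of both genotypes inside the range of the Tau- libraries. Free RNA held C4b at a mean of 17.0 CPM in Tau- and 89.1 CPM in Tau+ libraries, against 90.7 and 246 CPM in the nuclei, and its part in the difference was not tested.

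Signalling through gp130 cytokines was represented by its receptor, its factor and its inhibitor. Osmr, the receptor subunit for oncostatin M (chr15:6813577-6874969), was at 16.2, 26.7, 15.3 and 15.3 CPM in Ch25h+/+ Tau-, 124, 108, 15.4 and 102 CPM in Ch25h+/+ Tau+, 26.7, 11.4, 25.9 and 20.2 CPM in Ch25h-/- Tau- and 117, 107, 32.6 and 100.4 CPM in Ch25h-/- Tau+. Osmr was high in 3 of 4 Tau+ libraries of each genotype, and replicate 3 of Ch25h+/+ Tau+ lay at the Tau- level. Its log2 fold change was 2.18 ± 0.40 (adjusted p = 0.0126), and that of the transcription factor gene Stat3 (chr11:100885098-100939540) 0.70 ± 0.13 (adjusted p = 0.00556), from 66.1 to 127 CPM in Tau- to 119 to 203 CPM in Tau+ libraries.

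Socs3, the feedback inhibitor of this pathway (chr11:117966079-117970047), held 3 UMIs in the Tau- libraries of each genotype and 97 and 58 UMIs in the Tau+ libraries of Ch25h+/+ and Ch25h-/-. The ratios were 12.2-fold (95% counting interval 4.07 to 60.4) and 12.9-fold (4.21 to 64.5), and each Tau+ library lay above each Tau- library. Bcl3, an atypical inhibitor of NF-kB, held 3 UMIs in all Tau- libraries and 161 in the Tau+ libraries, a ratio of 26.5 (8.91 to 130). Of the 16 genes listed for cytokine receptors and STAT3 signalling, 15 were tested and Osmr, Socs3 and Stat3 rose, where 1.72% of all genes rose. Leaving out replicate 3 of Ch25h+/+ Tau+ raised that count to 5, and of Ch25h-/- Tau+ to 6. The other receptor genes did not pass the test: Il6st had a log2 fold change of 0.19, Lifr -0.18 and Cntfr -0.27.

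**Figure D2:**
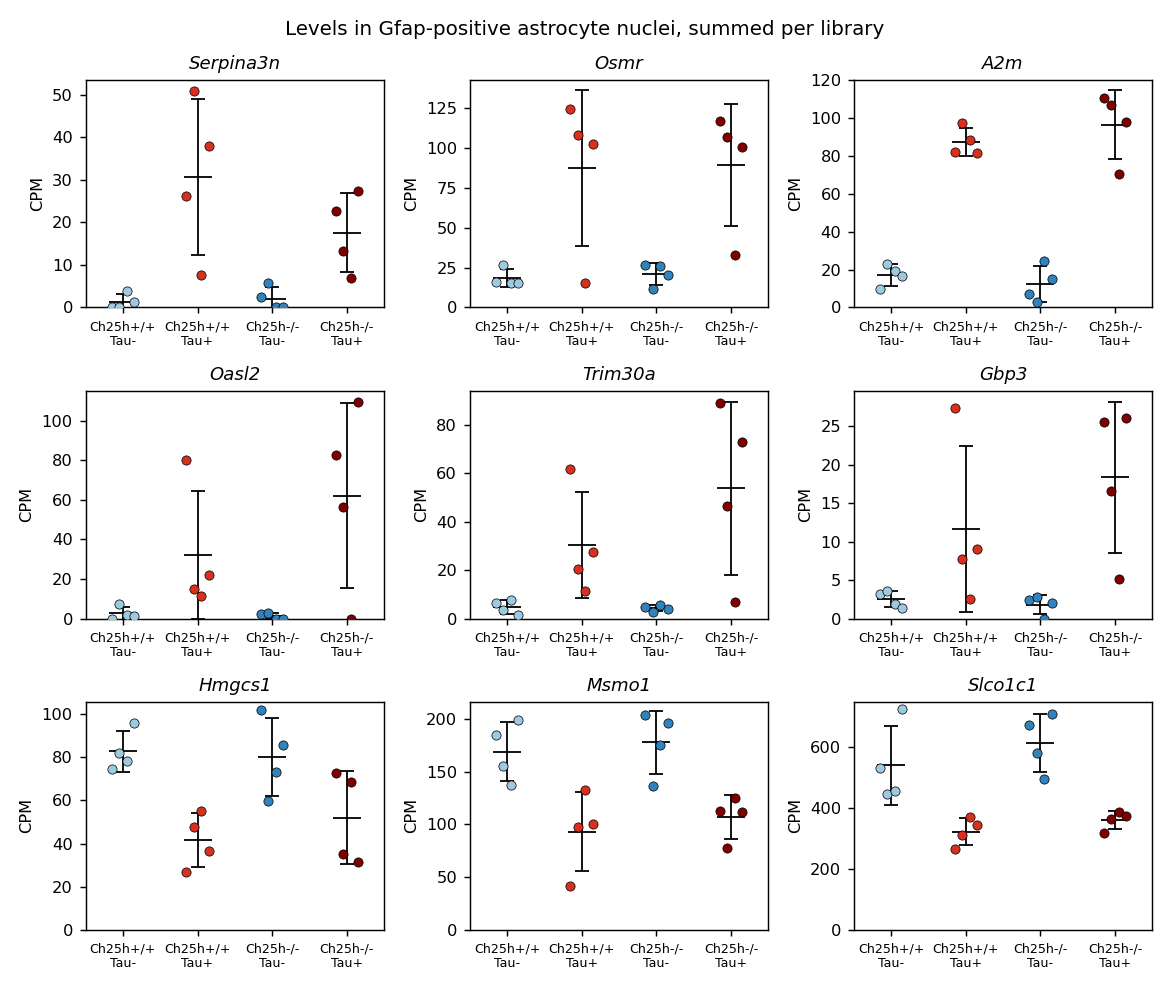
Level in CPM of 9 genes in the Gfap-positive astrocyte nuclei, 1 point per library, with the mean and SD of each group of 4. A2m and Slco1c1 separate all Tau+ from all Tau- libraries, and 1 Tau+ library of each genotype stays low for Osmr (15.4 and 32.6 CPM).

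A number of interferon-stimulated genes rose. Of 37 genes listed, 35 had a UMI in these nuclei, 21 passed the low-count filter and 15 rose. The median log2 fold change over the 21 was 2.40, and it is given as a description, since several of them were near 0 UMIs in Tau- libraries and passed the filter through the Tau+ libraries, while 14 with a UMI did not pass. In a fit with no filter 26 of the 35 were called higher, where 2.67% of 23251 genes were called and 1.85% called higher. In single genotypes the median over the 21 was 1.64 in Ch25h+/+, where none was called by edgeR (14 at an unadjusted p under 0.05, 1 called by DESeq2), and 2.65 in Ch25h-/-, where edgeR called 1 and DESeq2 13. Of all genes tested edgeR called 0.0979% higher in Ch25h+/+ and 0.206% higher in Ch25h-/-, and DESeq2 called 53 and 75 genes in either direction. The edgeR count in Ch25h-/- was 22 (of 122 genes called in all) on leaving out its Tau+ replicate 3, 10 (of 43) on leaving out Ch25h+/+ Tau+ replicate 1, 6 (of 55) for Ch25h+/+ Tau+ replicate 3 and 2 (of 27 and 30) for Ch25h+/+ Tau- replicate 1 or 3. It was 0 on leaving out Tau+ replicate 4 or Tau- replicate 4 of either genotype, or Ch25h-/- Tau+ replicate 1 or Ch25h-/- Tau- replicate 1, 2 or 3. In Ch25h+/+ it was 1 on leaving out Tau+ replicate 3 of either genotype and 0 otherwise. The 15 were Oasl2, Usp18, Trim30a, Ddx60, Gbp3, Ifit3b, Rsad2, Samd9l, Xaf1, Gbp7, Irf9, Ifi27, Ddx58, Stat2 and Eif2ak2. Free RNA also held more of each of the 15 with tau. For Ifi27 its mean was 85.8 CPM in Tau- and 126.5 CPM in Tau+ libraries, above the 38.6 and 95.5 CPM of the nuclei, and for Xaf1 8.53 and 14.4 CPM, above the nuclei in Tau- (3.65 CPM) and below them in Tau+ (16.5 CPM). For the other 13 the mean over all libraries, both tau states together, was lower in free RNA than in the nuclei. By tau state, Oasl2 had 1.11 and 6.70 CPM against 1.96 and 47.1 CPM, and Ddx60 0.919 and 6.75 CPM against 9.93 and 78.4 CPM. The order within each tau state is not given for the rest and can differ from that of the joint mean. The part of free RNA in these rises was not tested. Ifit3 (2.68) did not pass the test. Ifit3 and Ifit3b, the guanylate-binding proteins (Gbp) and Trim30a and Trim30d are near-copies whose reads the counting could split. The RNA sensor gene Ifih1 (0.98) did not pass the test and the DNA sensor gene Cgas did not pass the low-count filter. Of 6 tested genes of the cGAS-STING list 1 rose (1.72% of all genes did), Ikbke, by 0.81 on the log2 scale, and none was called without Ch25h+/+ Tau+ replicate 1 or 2, Ch25h+/+ Tau- replicate 4, or Ch25h-/- Tau+ replicate 1 or 2.

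The count of interferon-stimulated genes called depended on the libraries. It was 11 without Ch25h+/+ Tau- replicate 4, Ch25h-/- Tau+ replicate 1 or Ch25h-/- Tau- replicate 4, but 25 on leaving out Ch25h-/- Tau+ replicate 3. Within replicates 1 and 2 of each group 9 of 26 tested were called, where 1.67% of all genes were called, 1.3% higher. Within replicates 3 and 4 edgeR called none of 14 (11 at an unadjusted p under 0.05), and 0.39% of all genes, 0.244% higher. Among nuclei with exactly 1 Gfap UMI 1 of 10 tested was called, and 0.0499% of all genes.

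Trim30a, a tripartite motif protein of the antiviral response (chr7:104409025-104465193), was at 6.49, 3.57, 7.63 and 1.39 CPM in Ch25h+/+ Tau-, 61.9, 20.6, 11.5 and 27.6 CPM in Ch25h+/+ Tau+, 4.85, 2.84, 5.75 and 4.04 CPM in Ch25h-/- Tau- and 88.9, 46.3, 6.87 and 73.0 CPM in Ch25h-/- Tau+. The lone Tau+ library inside the Tau- range was Ch25h-/- Tau+ replicate 3. The log2 fold change was 3.24 ± 0.59 (adjusted p = 0.0122). Gbp3, a GTPase of the guanylate-binding family, was at 1.39 to 3.57 CPM in Ch25h+/+ Tau- and at 27.3, 7.73, 2.56 and 8.98 CPM in Ch25h+/+ Tau+, and at 0 to 2.84 CPM and 25.6, 16.5, 5.15 and 26.1 CPM in the Ch25h-/- groups (2.90 ± 0.56, adjusted p = 0.00875). Ch25h+/+ Tau+ replicate 3 lay inside the Tau- range. Gbp3 (promoter window at chr3:142559794-142560043) lies on chromosome 3, as does Gm43049, which separated the tau labels and whose position is given above. The part of sequence linked to the tau line was not tested, for Gbp3 or for the family members Gbp5 and Gbp7, which also rose.

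Oasl2, an oligoadenylate synthetase-like protein, varied widely between Tau+ libraries. It was at 80.3, 14.8, 11.5 and 22.1 CPM in Ch25h+/+ Tau+, 82.5, 56.2, 0 and 109.5 CPM in Ch25h-/- Tau+, and 0 to 7.13 CPM in the 8 Tau- libraries. Its log2 fold change of 4.80 ± 1.03 (adjusted p = 0.0307) lost its call when any of 5 single libraries was left out (highest adjusted p 0.088). Ddx60, an RNA helicase, was at 145, 46.4, 14.1 and 38.0 CPM in Ch25h+/+ Tau+ and 136, 100.4, 15.4 and 132 CPM in Ch25h-/- Tau+, with Tau- libraries at 0 to 37.4 CPM, and its fold change of 3.13 ± 0.69 (adjusted p = 0.0341) lost its call in 10 of 16 such fits. Usp18 and Rsad2 lost theirs in 3 each. Irf9, which partners STAT2, rose by 1.46 ± 0.25 (adjusted p = 0.00274) and kept its call in all 16, as did Trim30a, Gbp3, Gbp6, Socs3, Osmr, Stat3, C4b and Serpina3n.

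The promoters of the called interferon-stimulated genes were searched for the interferon-stimulated response element, the site that the factor complex with STAT2 and IRF9 binds. The letters searched were GAAA, any 2 bases (NN) and GAAA again, on both strands in the 250 bases before each RefSeq start (GRCm38.p6), with no other motif searched. Of the 15 called genes 13 were in the promoter table and 7 of these held the letters at a listed start: Ifit3b, Stat2, Rsad2, Ddx60, Trim30a, Gbp3 and Gbp7. That is 53.85% of the called genes matched. Of the 37 interferon-stimulated genes listed, called or not, 27 were matched and 13 held the letters (48.15%). The letters are thus frequent in the list as a whole, whether or not a gene rose. Among all 27025 genes with a RefSeq promoter the letters occurred in 936 (3.46%). Over the 136 matched genes that rose, interferon-stimulated or not, they occurred in 16 (11.8%), the 7 among them. Of the 45 matched genes that fell, 4 held them (8.89%). Below are 4 of the 7, shown because they carry the match within these windows, 5′ to 3′ on the strand of the gene, with the matched letters in capitals. They lie at chr12:26456453-26456702 on the minus strand for Rsad2, chr8:61927837-61928086 on the plus strand for Ddx60, chr7:104465194-104465443 on the minus strand for Trim30a and chr3:142559794-142560043 on the plus strand for Gbp3.
Rsad2: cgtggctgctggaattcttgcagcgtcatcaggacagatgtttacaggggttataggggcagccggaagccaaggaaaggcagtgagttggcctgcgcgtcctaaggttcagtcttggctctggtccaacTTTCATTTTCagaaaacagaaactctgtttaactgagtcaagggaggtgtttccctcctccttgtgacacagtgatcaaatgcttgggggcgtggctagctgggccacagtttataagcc
Ddx60: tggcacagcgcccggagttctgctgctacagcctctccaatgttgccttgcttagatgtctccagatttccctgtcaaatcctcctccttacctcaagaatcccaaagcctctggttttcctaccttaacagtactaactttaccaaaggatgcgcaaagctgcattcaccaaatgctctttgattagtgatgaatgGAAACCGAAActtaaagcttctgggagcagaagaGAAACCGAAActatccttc
Trim30a: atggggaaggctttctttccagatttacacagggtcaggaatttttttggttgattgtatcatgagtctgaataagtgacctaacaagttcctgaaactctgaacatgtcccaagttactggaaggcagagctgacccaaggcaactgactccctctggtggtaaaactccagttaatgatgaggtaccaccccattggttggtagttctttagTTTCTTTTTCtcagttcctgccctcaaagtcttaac
Gbp3: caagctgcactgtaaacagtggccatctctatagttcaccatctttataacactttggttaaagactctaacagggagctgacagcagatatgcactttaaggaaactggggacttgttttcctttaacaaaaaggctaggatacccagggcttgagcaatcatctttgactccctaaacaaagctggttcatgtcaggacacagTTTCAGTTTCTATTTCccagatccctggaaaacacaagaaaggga

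In Ddx60 the letters occurred at 2 places, the nearer beginning 19 bases before the start, and in Gbp3 2 matches overlapped, so their capitals form a single run. Matches on the other strand read as TTTC, 2 bases and TTTC. In Trim30a and Rsad2 the single match began 36 and 120 bases before the start. None of the 4 matched cholesterol synthesis genes described below held the letters in this window.

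Some genes of cholesterol synthesis and uptake fell, and they are given in the order of the pathway, from isoprenoid precursors to sterols. Of 25 listed, 22 were tested, 7 fell (against 0.607% of all genes), none rose, and all 22 had a negative log2 fold change, with a median of -0.64 against -0.01 over all genes. Hmgcs1, which makes HMG-CoA at the head of the pathway (chr13:119690379-119708260), was at 74.7, 82.0, 78.2 and 96.0 CPM in Ch25h+/+ Tau-, 26.8, 47.7, 55.0 and 36.6 CPM in Ch25h+/+ Tau+, 102, 59.7, 73.3 and 85.9 CPM in Ch25h-/- Tau- and 72.5, 35.3, 68.7 and 31.3 CPM in Ch25h-/- Tau+. The Ch25h+/+ groups did not overlap, the Ch25h-/- groups did, and the log2 fold change was -0.83 ± 0.18 (adjusted p = 0.0141).

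Idi1, which isomerises isopentenyl diphosphate, had a log2 fold change of -1.01 ± 0.24 and Fdps, which makes farnesyl diphosphate, -0.93 ± 0.23. Fdft1 and Sqle, the first enzymes committed to sterols, had -0.65 and -0.79, and Cyp51, which demethylates lanosterol, -0.79. Msmo1, a methylsterol oxidase (chr8:64718139-64733792), was at 185, 155, 137 and 199 CPM in Ch25h+/+ Tau-, 41.8, 97.9, 133 and 100.1 CPM in Ch25h+/+ Tau+, 204, 137, 175 and 196 CPM in Ch25h-/- Tau- and 113, 77.2, 125 and 112 CPM in Ch25h-/- Tau+. The lowest Tau- library (137 CPM) lay just above the highest Tau+ library (133 CPM), and the log2 fold change was -0.82 ± 0.18 (adjusted p = 0.0202). Free RNA held these transcripts at similar levels, lower with tau. Its mean Fdps level went from 39.4 CPM in Tau- to 27.1 CPM in Tau+ libraries, above the 32.6 and 16.8 CPM of the nuclei, and its Sqle level from 59.8 to 44.2 CPM, above 51.4 and 30.6 CPM. For Cyp51 it went from 72.1 to 53.5 CPM, against 82.4 and 49.0 CPM in the nuclei. Hmgcs1 (49.7 and 33.2 CPM), Idi1 (18.9 and 13.5 CPM) and Msmo1 (86.7 and 64.1 CPM) were lower in free RNA than in the nuclei, whose means were 81.5 and 46.7, 35.5 and 17.8, and 174 and 100.1 CPM. The part of free RNA in these falls was not tested.

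The regulator Srebf2 (-0.10) did not pass the test. The count of 7 was 2 without Ch25h+/+ Tau+ replicate 1 or Ch25h+/+ Tau- replicate 4, 3 without Ch25h+/+ Tau+ replicate 4, Ch25h-/- Tau+ replicate 2 or Ch25h-/- Tau- replicate 4, 4 without Ch25h-/- Tau+ replicate 4 or Ch25h-/- Tau- replicate 1, but 10 on leaving out Ch25h+/+ Tau+ replicate 3. It was 3 within replicates 1 and 2 (0.368% of all genes called lower), 0 within replicates 3 and 4 (0.146%, with 9 of 22 at an unadjusted p under 0.05), and 1 of 24 over all 15218 astrocyte nuclei, where 269 of 14426 genes were called (1.86%, 1.66% higher and 0.208% lower). Of 11 tested genes of LXR and cholesterol efflux, 1 rose (1.72% of all genes did), the exporter gene Abca1, by 0.49 (adjusted p = 0.0452, lost without any of 12 single libraries). Apoe, the main lipid carrier of astrocytes, had a log2 fold change of 0.03, and 1 library, Ch25h+/+ Tau- replicate 3, stood at 730.5 CPM where the other 15 were at 2109 to 4925 CPM. Of 9 tested genes of oxysterol synthesis and sensing none was called by edgeR (1 at an unadjusted p under 0.05) or DESeq2.

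**Figure D3:**
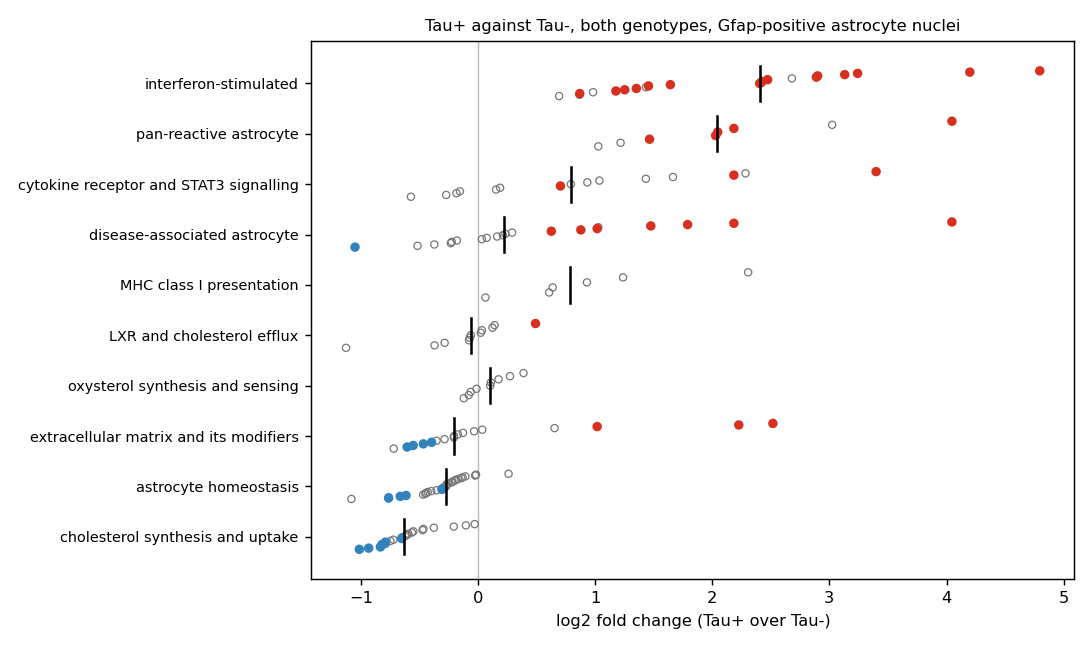
Log2 fold change of Tau+ over Tau- in Gfap-positive astrocyte nuclei, both genotypes together, 1 point per tested gene of each list, with filled red points for genes that rose and filled blue points for genes that fell at an adjusted p under 0.05, open points for the rest, and a bar at each list's median. The interferon-stimulated genes lie around a median of 2.40 and the cholesterol synthesis genes around -0.64.

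Most genes of astrocyte housekeeping had a lower value with tau. Of 30 listed, all were tested, 4 fell (0.607% of all genes did) and none rose, and 29 had a negative log2 fold change, between -1.08 and 0.26 with a median of -0.27. In each genotype alone 29 of 30 were negative too. Slco1c1, a transporter of thyroid hormone (chr6:141524368-141570177), was at 533, 446, 458 and 726 CPM in Ch25h+/+ Tau-, 266, 311, 371 and 345 CPM in Ch25h+/+ Tau+, 672, 583, 497 and 711 CPM in Ch25h-/- Tau- and 318, 363, 386 and 374 CPM in Ch25h-/- Tau+. No Tau+ library reached a Tau- library, and the log2 fold change was -0.76 ± 0.11 (adjusted p = 0.000388). Glul, the glutamine synthetase that detoxifies glutamate and ammonia, had a log2 fold change of -0.61 ± 0.14 (adjusted p = 0.0278), with 496 to 692 CPM in Tau- and 257 to 571 CPM in Tau+ libraries.

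The glypican gene Gpc5 (-0.31) and the protease gene Htra1 (-0.66) fell too. The calls of Glul, Gpc5 and Htra1 were lost in 6, 9 and 12 of 16 fits without a single library, and only Slco1c1 of the 4 kept its call in all 16. The count of the list was 1 without Ch25h+/+ Tau+ replicate 2, Ch25h-/- Tau- replicate 2, Ch25h-/- Tau- replicate 3, Ch25h-/- Tau- replicate 4 or Ch25h-/- Tau+ replicate 1, 2 without Ch25h+/+ Tau+ replicate 1, Ch25h+/+ Tau- replicate 4 or Ch25h-/- Tau+ replicate 4, but 6 on leaving out Ch25h-/- Tau+ replicate 3. The glutamate transporter gene Slc1a2 (-0.25), the potassium channel gene Kcnj10 (-0.02) and the water channel gene Aqp4 (0.23) did not pass the test.

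Outside these lists, Lhx2, a LIM-homeobox factor of the developing forebrain (chr2:38339281-38369733), fell by 0.81 ± 0.12 on the log2 scale (adjusted p = 0.000388). It was at 68.2, 85.6, 89.6 and 71.0 CPM in Ch25h+/+ Tau-, 48.5, 54.8, 60.2 and 60.8 CPM in Ch25h+/+ Tau+, 99.5, 108, 121 and 81.8 CPM in Ch25h-/- Tau- and 51.9, 43.0, 42.9 and 46.9 CPM in Ch25h-/- Tau+, with no overlap between tau states. Fabp5, a fatty acid binding protein, fell by 1.05 ± 0.19 (adjusted p = 0.00359), from 32.5 to 89.6 CPM in Tau- to 16.7 to 41.2 CPM in Tau+ libraries. Free RNA held more Fabp5 than the nuclei and less of it with tau, 78.2 CPM in Tau- and 50.6 CPM in Tau+. The other genes that fell with the largest fold changes were Hs3st2, a heparan sulfate sulfotransferase (-1.51), Gstm5 (-1.11), G0s2 (-1.09), Mrpl51 (-0.96), the Wnt receptor gene Fzd2 (-0.94), A830008E24Rik (-0.94) and Ssr3 (-0.89). Of these, Hs3st2, Gstm5, G0s2, Mrpl51 and Ssr3 were on average higher in free RNA than in the nuclei, and Gstm5 in free RNA went from 120.0 CPM in Tau- to 64.4 CPM in Tau+, with 94.0 and 44.8 CPM in the nuclei. Those that rose and are not yet named were Gm43049, at 0 UMIs in the Tau- libraries and so at least 28.5-fold higher in Tau+, Gbp5 (3.86), Gbp6 (3.16) and Gm4951 (4.23, lost without any of 13 single libraries). Free RNA held Gm43049 at a mean of 63.4 CPM in Tau+ and 0.034 CPM in Tau- libraries, above the mean of 17.5 CPM in the Tau+ nuclei. The part of free RNA in the differences of these genes was not tested.

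Matrix genes split. Of 20 listed, 17 were tested, A2m, Sulf1 and Sulf2 rose (1.72% of all genes did), and the lecticans Ncan (-0.61) and Bcan (-0.40), the link protein gene Hapln1 (-0.47) and tenascin C, Tnc (-0.55), fell (0.607% of all genes), with a median of -0.20. Sulf1, an extracellular enzyme that trims heparan sulfate (chr1:12692277-12861192), was at 22.7, 14.3, 36.2 and 16.7 CPM in Ch25h+/+ Tau-, 99.2, 147, 55.0 and 64.9 CPM in Ch25h+/+ Tau+, 29.1, 17.1, 30.2 and 16.2 CPM in Ch25h-/- Tau- and 181, 103, 60.1 and 120.0 CPM in Ch25h-/- Tau+ (log2 fold change 2.23 ± 0.30, adjusted p = 0.0013, no overlap). Aebp1, a secreted protein of collagen matrix, rose from 0 to 15.8 CPM in Tau- to 25.1 to 46.1 CPM in Tau+ libraries (2.23 ± 0.30, adjusted p = 0.000352). Of the 4 matrix genes that fell, Ncan alone kept its call without any single library, and the others lost theirs in 9 to 12 of 16 fits. The count of 4 was 1 without Ch25h+/+ Tau+ replicate 1 or 4, Ch25h-/- Tau+ replicate 1 or 2, or Ch25h-/- Tau- replicate 2, 3 or 4, and 2 without Ch25h+/+ Tau- replicate 1, 3 or 4.

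No gene passed the test for loss of Ch25h in these nuclei. Of 10211 genes, edgeR's quasi-likelihood test called 0 for Ch25h-/- against Ch25h+/+ in Tau+ mice (0% of those tested, 242 at an unadjusted p under 0.05), 0 in Tau- mice (411) and 0 for the difference between the tau effects of the 2 genotypes (409), and DESeq2 also called 0 in each. In Tau+ mice the log2 fold change of Ch25h-/- over Ch25h+/+ was 0.17 ± 0.20 for A2m, 0.13 ± 0.28 for Cd44, 0.02 ± 0.42 for Osmr, -0.80 ± 0.44 for Serpina3n, 0.82 ± 0.49 for Trim30a and 0.37 ± 0.25 for Hmgcs1 (SE). A2m had a tau effect of 2.28 in Ch25h+/+ and 2.76 in Ch25h-/-, Osmr 2.29 and 2.08, Cd44 2.21 and 1.85, Trim30a 2.86 and 3.62, Oasl2 3.53 and 6.06, Usp18 2.49 and 5.90, Hmgcs1 -1.05 and -0.62, and Lhx2 -0.50 and -1.12, on the log2 scale. All 8 differences had an adjusted p of 0.9998 in the test of the interaction. Usp18 was at 1.01 CPM in Ch25h-/- Tau- replicate 4 and at 0 in the other libraries of that group. Its value of 5.90 is therefore set near the floor of counting and is not a measure of size. Oasl2 was also low in the Tau- libraries, so its value of 6.06 rests on few reference counts and is not a measure of size either. A p that misses the threshold does not show that the genotypes respond alike.

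Within the lists, fold changes for loss of Ch25h in Tau+ mice often shared a sign, although no gene passed. All 21 tested interferon-stimulated genes had a positive log2 fold change of Ch25h-/- over Ch25h+/+, with a median of 0.62 against 0.00 over all genes, 0.42 to 1.12 without single libraries (0.42 on leaving out Ch25h+/+ Tau+ replicate 3 and 1.12 for its replicate 1), 0.36 in replicates 1 and 2, where 24 of 26 were positive, and 1.01 in replicates 3 and 4. Of 22 cholesterol synthesis genes 20 were positive, with a median of 0.23, from 0.012 on leaving out Ch25h+/+ Tau+ replicate 1 to 0.43 for its replicate 3, and of 0.50 in replicates 1 and 2 and -0.02 in replicates 3 and 4. Of 20 disease-associated genes 16 were negative, with a median of -0.23, from -0.41 on leaving out Ch25h+/+ Tau+ replicate 3 to -0.10 for Ch25h-/- Tau+ replicate 3. In Tau- mice 14 of the 21 interferon-stimulated genes were negative (median -0.25, from -0.61 on leaving out Ch25h+/+ Tau- replicate 4 to -0.14 for its replicate 1), and 18 of 21 had a positive interaction (median 0.90, from 0.77 on leaving out Ch25h-/- Tau+ replicate 1 to 1.51 for Ch25h+/+ Tau+ replicate 1). Genes of a list share their libraries, so these counts are a description with no test. The 21 interferon-stimulated genes are those that passed the low-count filter. A gene low elsewhere can pass it through the libraries where it is high, those of Ch25h-/- Tau+ included, which favours a positive sign for loss of Ch25h. Members of the list that did not pass are not in these counts. Several interferon-stimulated genes were near 0 UMIs in Tau- libraries, so their fold changes in Tau- mice and in the interaction rest on few counts.

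Gfap-positive nuclei were then set against the Gfap-negative astrocyte nuclei of the same libraries, matched in UMIs per nucleus, with the library as a term. Of 11106 genes, 926 were higher (8.34%) and 1085 lower (9.77%) in the Gfap-positive nuclei by edgeR at an adjusted p under 0.05. The 15 genes lowest in the Gfap-positive nuclei included Mrvi1 (-5.21), Slc22a6 (-4.75), Glra3, Themis, Lamc3, Nid1, Aldh1a2, Tbx18, Aox3, Foxd1, Gm30613, Slc6a20a, Cdh5 and Gm42397, several of them genes of fibroblasts, mural or endothelial cells. Fibroblast markers were higher in the Gfap-negative nuclei, with medians over libraries of 88.5 against 4.55 CPM for Bnc2 and 80.6 against 4.41 CPM for Slc6a13. The comparison was therefore repeated, after seeing these values, with nuclei that held at most 1 UMI of each vascular, ependymal and choroid marker list, 2922 matched nuclei of each kind in place of 4178. It then called 10.2% of 8991 genes, 479 higher (5.33%) and 437 lower (4.86%), and none of the 15 lowest genes passed its low-count filter, while 12 of the 15 highest did and all 12 were called again.

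The 15 highest genes in the Gfap-positive nuclei were led by Myoc, the matrix protein myocilin (log2 fold change 3.101 ± 0.26, adjusted p = 7.07e-07), Cxcl5, a chemokine of neutrophils (2.91 ± 0.29), Gpnmb (2.51 ± 0.31) and Cd44 (2.22 ± 0.18). Myoc was higher in the Gfap-positive nuclei of all 16 libraries, with a median of 72.7 CPM against 10.7 CPM, and remained called with the limits at 2.55. The others were C530044C16Rik, P4ha3, Atoh8, A2m (1.71), Apbb1ip, Gm12724, Gm44626, C4b (1.51), Col9a1, Myo3b and Ggta1 (1.43). With the limits, the leading genes higher were Ccdc3 (2.82), Cxcl5 (2.59), Myoc, Gm29266 (2.49) and Sulf1 (2.29), and those lower were Trpc6 (-2.12), Rpe65 (-1.93), Unc13c (-1.56) and Gli1 (-1.56).

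The list for fibrous, Gfap-high astrocytes was higher almost throughout: 14 of 16 genes with all nuclei and 13 of 16 with the limits, where 8.34 and 5.33% of all genes were higher, with medians of 1.06 and 1.01 against 0.00 over all genes. The nuclei were split on Gfap and this list is of genes that go with high Gfap, so its counts are a description and support nothing. Aqp4, the water channel of the endfeet, was at 300.2 to 567 CPM in the Gfap-positive and 129 to 263 CPM in the Gfap-negative nuclei (1.24 ± 0.05, adjusted p = 7.35e-25), and was higher in all 16 libraries. Id3, a partner-blocking transcription factor, was at 159 to 328 against 45.8 to 135 CPM, a log2 fold change of 1.22 ± 0.07. S100b, a calcium-binding protein of most astrocytes, did not pass the test (0.15, adjusted p = 0.335). Of the disease-associated list 16 of 20 were higher in either comparison (8.34 and 5.33% of all genes), Clu and Apoe among them by 0.60 and 0.51 with all nuclei and 0.34 and 0.30 with the limits.

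Housekeeping genes depended on which nuclei were compared. With all nuclei 11 of 30 were higher and 7 lower in the Gfap-positive nuclei, where 8.34% of all genes were higher and 9.77% lower, with a median of 0.04. With the limits none was higher and 17 were lower, where 5.33% of all genes were higher and 4.86% lower, with a median of -0.22. The channel gene Trpm3 was lower in both (-1.24 and -0.75), as were the GABA transporter gene Slc6a11 (-0.23 and -0.54), the amino acid transporter gene Slc7a10 (-0.21 and -0.55) and the connexin gene Gjb6 (-0.31 and -0.29). Slc1a2 was 0.31 and 0.00, and Slco1c1 turned from 0.17 to -0.23, called in both. Of interferon-stimulated genes 5 of 25 tested were higher and 1 lower with all nuclei, and 3 of 20 were higher with the limits, Ddx60, Ddx58 and Ifi27, against the same shares of all genes (8.34% higher and 9.77% lower, and 5.33% higher with the limits). Without single libraries the list's counts with all nuclei were 3 to 6 higher and 1 to 2 lower. The share of nuclei with a Gfap UMI, taken under the limits, differed between tau states by 19.5 points (exact permutation p = 0.000816). The tau states overlapped there, with the lowest Tau+ library at 26.9% and the highest Tau- library at 27.9%. In Ch25h-/- alone the difference under the limits was 14.3 points with overlap (exact permutation p = 0.0571).

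**Figure D4:**
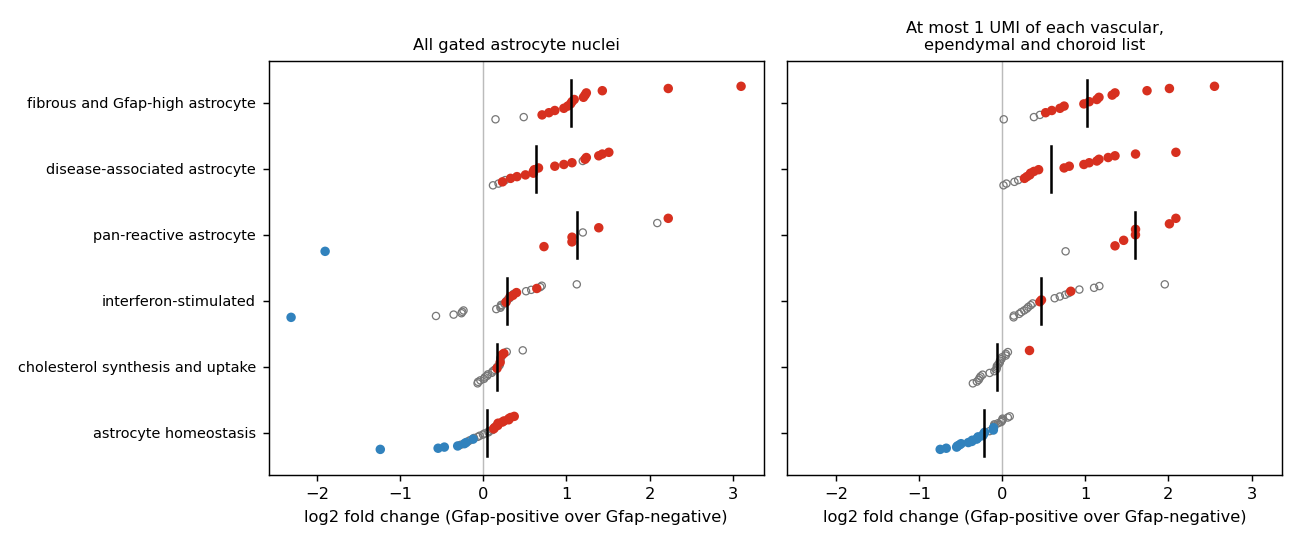
Log2 fold change of Gfap-positive over Gfap-negative astrocyte nuclei of the same libraries, 1 point per tested gene of 6 lists, with all nuclei (left) and with limits on vascular, ependymal and choroid markers (right). Filled red and blue points are genes higher and lower at an adjusted p under 0.05, open points the rest, and bars are medians, which for astrocyte homeostasis are 0.04 on the left and -0.22 on the right.

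Levels followed the number of Gfap UMIs of a nucleus for some genes and not for others. Pooled over libraries, Cd44 was at 8.53 CPM in nuclei without Gfap, 19.5 with 1 UMI, 38.1 with 2, 73.8 with 3 or 4 and 168 CPM with 5 or more. A2m was at 13.8, 12.01, 49.1, 91.1 and 216 CPM over the same classes, and C4b at 61.3, 127, 230.0, 263 and 347 CPM. Aqp4 went from 199 to 691 CPM, S100b stayed between 50.5 and 56.9 CPM, and Gpc5 was at 7888 CPM without Gfap and 5358 CPM with 5 or more UMIs. These values are a description, and a nucleus with more UMIs is more often in a higher class. The higher classes also drew a larger part of their nuclei from Tau+ libraries, so the pooled levels mix the tau difference with the Gfap class.

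Split by tau state, the classes held different amounts. In nuclei with 5 or more Gfap UMIs the median over Tau+ libraries was 157 CPM of Cd44, 238 CPM of A2m and 54.2 CPM of Serpina3n, and over Tau- libraries 41.7, 34.98 and 0 CPM. For Myoc the order was the opposite, with 74.7 CPM in Tau+ and 299 CPM in Tau- libraries. The Tau- libraries held few such nuclei, 2 to 20 each (1.49 to 5.93% of their Gfap-positive nuclei), against 11 to 145 in the Tau+ libraries. The Tau- medians of this class, a 0 included, therefore rest on few nuclei and few UMIs.

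**Figure D5:**
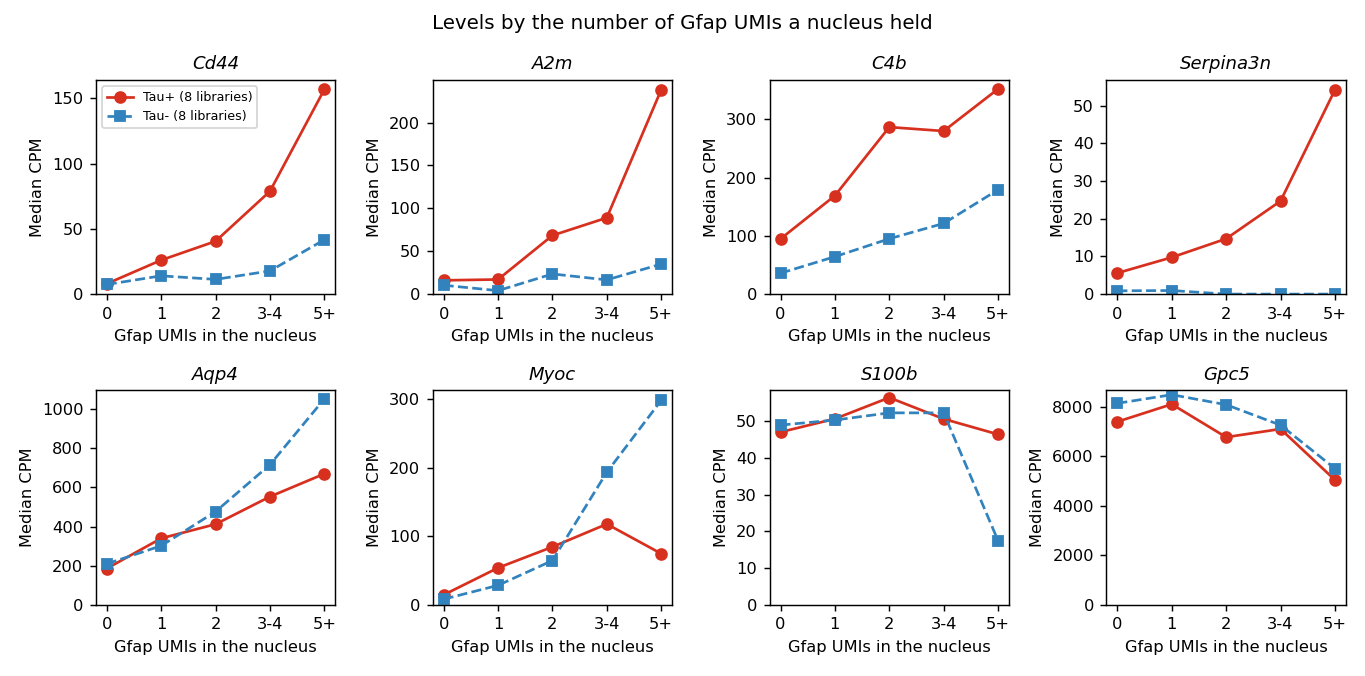
Median level over libraries in CPM of 8 genes in astrocyte nuclei grouped by their number of Gfap UMIs, for the 8 Tau+ libraries (circles, solid line) and the 8 Tau- libraries (squares, dashed line). Cd44, A2m and Serpina3n reach 157, 238 and 54.2 CPM in Tau+ nuclei with 5 or more Gfap UMIs. Myoc has a higher median there in Tau- libraries, which held only 2 to 20 such nuclei each.

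The tau effect itself differed between Gfap-positive and Gfap-negative nuclei for 58 of 11106 genes by edgeR's interaction test (0.522%), with 31 more positive and 27 more negative in the Gfap-positive nuclei. The 6 most positive included Plce1, a phospholipase C (1.04 ± 0.16, adjusted p = 0.0124), which had a mean of 167 CPM in Tau- and 454 CPM in Tau+ Gfap-positive nuclei and 154 and 208 CPM in Gfap-negative nuclei. Slc39a14, a zinc and iron importer, had 46.4 and 103 CPM against 40.9 and 45.2 CPM (0.9968 ± 0.20, adjusted p = 0.0129). With the limits on other cells' markers Slc39a14 kept its call and Plce1 did not. Fibroblast markers in unmatched Gfap-negative nuclei summed to 571 to 1148 CPM in Ch25h+/+ Tau+ and 135 to 524 CPM in Ch25h+/+ Tau-. In Ch25h-/- they overlapped (286 to 983 CPM with tau, 165 to 1132 CPM without). Their part in the differences of tau effect was not tested. The 58 became 8 on leaving out Ch25h-/- Tau- replicate 4, 26 and 32 without Ch25h+/+ Tau+ replicates 1 and 4, 20 and 16 without Ch25h+/+ Tau- replicates 3 and 4, 18 and 36 without Ch25h-/- Tau+ replicates 1 and 2, 22 and 27 without Ch25h-/- Tau- replicates 2 and 3, and 87 on leaving out Ch25h-/- Tau+ replicate 3, against 24 with the limits on other cells' markers, 5 of them in common.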

How the data were processed

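Nuclei were prepared with a 10x Genomics 3' v3.1 kit per the labels' protocols, and the deposited UMI count matrices, 1 per library, were made by the authors with Cell Ranger. The matrix headers name version 4 and the submitters' processing notes version 3.1.0, with Seurat and mm10. No tool for removing doublets or free RNA is given in the sources used here, and none was run. Of 32285 gene IDs 32158 were found in GENCODE M21. The nuclei and gene lists were chosen with earlier results of these data known. Counts were summed per library over the chosen nuclei, genes with low counts were dropped by edgeR's filterByExpr, and edgeR 4.0.16 (R 4.3.3, limma 3.58.1) fitted a quasi-likelihood model to all 4 groups after TMM scaling, with Benjamini-Hochberg adjustment over all genes tested and a threshold of 0.05. Errors of fold changes are standard errors. The script was tested on simulated data. Gfap-negative nuclei were drawn to match the Gfap-positive nuclei within 10 UMI classes per library. Shares were compared by exact permutation (Python 3.11.15). Genes were named as the 12 highest and 12 lowest fold changes for tau over both genotypes, 15 and 15 for Gfap-positive nuclei and 6 and 6 elsewhere, among called genes whose mean per library reached 5 UMIs, plus members of the lists. A group at 0 UMIs was set to 3 counts, summed over the group, and counting intervals are 95% exact intervals that cover counting error only. DESeq2 1.42.0, no filter, other gates, single libraries left out and replicate sets 1, 2 and 3, 4 were the alternatives. Replicate libraries differed by more than sampling noise (chi-square over degrees of freedom 8.42 to 65.2 in 24 pairs). Some members of the lists are counted but not reported here by name.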

Additional observations from a re-analysis of the deposited data

Results flagged for a closer look

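In 7 of 128 groups of 4 libraries, a single library lay far from the other 3, where chance gives about 1 in 20. Osmr was at 26.7 CPM in Ch25h+/+ Tau- replicate 2 and at 15.3 to 16.2 CPM in the others of its group. Cd44 was at 5.69 CPM in Ch25h-/- Tau- replicate 2 against 23.2 to 26.7 CPM. In Ch25h+/+ Tau+ replicate 1, Oasl2 was at 80.3 CPM against 11.5 to 22.1 CPM and Usp18 at 31.8 CPM against 3.84 to 8.38 CPM. Usp18 was at 1.01 CPM in Ch25h-/- Tau- replicate 4 and at 0 in the others. Ddx60 was at 37.4 CPM in Ch25h+/+ Tau- replicate 2 against 6.49 to 7.63 CPM, and Vim at 42.0 CPM in Ch25h+/+ Tau- replicate 3 against 14.3 to 16.2 CPM.

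The tau effect differed between Gfap-positive and Gfap-negative nuclei by edgeR's interaction test for 12 named genes, given as the difference of the log2 fold changes. It was more positive in the Gfap-positive nuclei for Chil1 (1.63), P2rx7 (1.18), Plce1 (1.04), Slc39a14 (0.9968), Map3k14 (0.97) and Ifi27 (0.97). It was more negative for Trabd2b (-2.45), Spsb4 (-1.43), Nhsl2 (-1.28), Kcnh1 (-1.22), Hgsnat (-1.15) and Bmp6 (-1.12). With limits on vascular, ependymal and choroid markers, Slc39a14 alone of the 12 kept its call. Bmp6 had a mean of 109 CPM in Tau- and 241 CPM in Tau+ Gfap-negative nuclei, and of 63.7 and 66.5 CPM in Gfap-positive nuclei.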

How the results depend on the processing

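No paired analysis was possible because the replicate numbers only follow the order of deposit, so no pairing of mice between groups is known. The comparison of Gfap-positive with Gfap-negative nuclei was paired within libraries. With the replicate set (1 and 2, or 3 and 4) as a term, tau over both genotypes gave 353 calls. For tau over both genotypes, 238 calls became 621 with no filter, 4 in nuclei with exactly 1 Gfap UMI and 40 in replicates 3 and 4 alone, and 140 to 350 without single libraries. In Ch25h+/+, 12 became 53 with DESeq2, 241 with no filter, 7 with 2 or more Gfap UMIs, 0 with exactly 1, 3 over all astrocyte nuclei, 36 with limits on vascular, ependymal and choroid markers, 49 with the replicate set as a term, 40 in replicates 1 and 2 alone, 63 in replicates 3 and 4 alone (17 higher and 46 lower, where the 12 were 10 higher and 2 lower), and 3 to 54 without single libraries. In Ch25h-/-, 23 became 75, 256, 34 with 2 or more Gfap UMIs, 0, 10, 15 and 46 in the same order, 7 in replicates 3 and 4 alone, and 3 to 122 without single libraries. With no filter, Ch25h loss gave 3 calls in Tau- mice and the interaction 4, and both gave 0 to 0 without single libraries, as did loss in Tau+. Gfap-positive against Gfap-negative nuclei gave 1127 calls with 2 or more Gfap UMIs, 1245 with no UMI of other types, 916 with the limits, and 1886 to 2065 without single libraries. The difference in tau effect gave 22 with DESeq2, 176 with no filter, 33 unmatched, 16 with 2 or more Gfap UMIs, 10 with no UMI of other types, 24 with the limits, and 8 to 87 without single libraries. The causes were not tested.

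The tau difference in the Gfap share was 21.8 points in replicates 1 and 2 and 13.7 points in replicates 3 and 4 (exact permutation, adjusted p = 0.333 each, with too few arrangements to pass). Without single libraries it was 17.8 to 25.7 points in Ch25h+/+ and 13.3 to 17.0 in Ch25h-/-. Ch25h loss moved it by -5.30 to -1.34 points over both tau states, by -10.9 to -2.96 in Tau+ and by -1.29 to 1.46 in Tau-, where replicates 1 and 2 gave -0.933 and thinning without repeating the marker rule -0.722. In Tau+ it passed without Ch25h+/+ Tau+ replicate 3 (-10.9, exact permutation, adjusted p = 0.0429) and was -10.0 in replicates 1 and 2 and -2.22 in replicates 3 and 4.

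Sign changes with the limits were looked up for named and listed genes only, and other called genes can have changed sign too. Among those looked up, the log2 fold change of Gfap-positive over Gfap-negative nuclei changed sign for Aldoc (-0.049), Cspg5 (-0.041), Fdft1 (-0.046), Glul (-0.11), Gpr37l1 (-0.0029), Hapln1 (-0.10), Htra1 (-0.10), Msmo1 (-0.028), Ntsr2 (-0.10), Osbpl8 (0.079), Prnp (-0.066), Scd2 (-0.037), Slc4a4 (-0.10), Slco1c1 (-0.23, and -0.10 with 2 or more Gfap UMIs), Sparcl1 (-0.086) and Srebf2 (-0.0296), and the difference in tau effect for Nhsl2 (0.27). The 113 to 600 nuclei per library limit what genes of a few UMIs can show.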
